A study of Mus musculus with 6 samples.

Results

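The troponin genes are the 8 genes that encode the calcium switch of striated muscle: the troponin T genes *Tnnt1*, *Tnnt2* and *Tnnt3*, the troponin I genes *Tnni1*, *Tnni2* and *Tnni3*, and the troponin C genes *Tnnc1* and *Tnnc2*. They were taken by gene symbol from a table of 55426 genes measured by RNA-seq in mouse abdominal aorta, and all 8 were found there. The family was chosen by the TPM values of *Tnnt2*, whose large difference between the groups was already known, so the values of *Tnnt2* in this comparison are a description and carry no test here.

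In heart and skeletal muscle, troponin sits on the thin filament together with actin and tropomyosin. Troponin C binds calcium, troponin I holds back the contact between actin and myosin at rest, and troponin T ties the complex to tropomyosin. Vascular smooth muscle cells (VSMCs) contract by another switch, in which calcium-bound calmodulin turns on myosin light chain kinase, and troponins are known mainly as proteins of striated muscle. Each subunit has genes used mostly by the heart, by slow skeletal fibres or by fast skeletal fibres: *Tnnt2* and *Tnni3* are the cardiac genes of T and I, *Tnnt1* and *Tnni1* the slow ones, *Tnnt3*, *Tnni2* and *Tnnc2* the fast ones, and *Tnnc1* serves both heart and slow fibres. *Tnnt2* is also used by the embryonic heart and, for a time, by developing skeletal muscle.

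Abdominal aortas of 3 *Prdm16*SMKO mice and 3 control mice were compared, all male and on the C57BL/6J strain, to ask what loss of the transcriptional regulator PRDM16 from VSMCs does to aortic RNA. *Prdm16*SMKO mice were *Prdm16* fl/fl *Myh11*-CreERT2, and the study describes its controls as wild-type mice carrying *Myh11*-CreERT2, so that both groups had the Cre and the floxed allele set them apart. *Myh11*-CreERT2 is a tamoxifen-inducible Cre recombinase driven by the smooth muscle myosin gene *Myh11* from the Y chromosome, and the gene is deleted only in smooth muscle while the whole vessel wall was sequenced. The methods gave male mice, with no group named, 75 mg/kg/day of tamoxifen for 5 days at 8 to 10 weeks of age and began their aneurysm experiments 2 weeks later. The age at which the sequenced aortas were taken is not given in the sources used here. The values are TPM, abundances that take the length of each transcript into account and add up to 1 shared total, so that genes can be set side by side within a library. Sequencing gave 40 M pairs of reads for a library on average, per the labels, but TPM keeps no record of the reads, so the depth of each library and the counting error of each value are unknown.

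*Prdm16* itself, on the same TPM scale, was at 33.4, 36.8 and 30.8 in the control libraries and 20.8, 27.7 and 14.8 in the *Prdm16*SMKO libraries (replicates 1, 2 and 3, in this order here and throughout). The groups did not overlap, yet the log2 fold change of −0.70 (SE 0.23) did not pass the threshold (limma, Benjamini-Hochberg adjusted p = 0.376). Other cells of the wall also count toward this level, and in whole tissue fewer cells of a type and less RNA per cell cannot be told apart. Summed levels of 11 VSMC markers ran from 20509 to 33685 TPM in control and from 16161 to 24972 TPM in *Prdm16*SMKO libraries, with none of the 11 at 0, so the tissue label held. Of the 11, 10 were highest in control replicate 2, which summed to 33685 TPM against 22960 and 20509 TPM in control replicates 1 and 3. The libraries also differed in markers of other cell types. Of 20 skeletal muscle markers, 15 were highest in *Prdm16*SMKO replicate 1, and 7 of 7 adipocyte markers in *Prdm16*SMKO replicate 3. In *Prdm16*SMKO replicate 2, 6 of 7 leukocyte and 6 of 7 fibroblast markers were highest. The 6 endothelial markers were highest in *Prdm16*SMKO replicate 2 or 3, 3 markers in each, and summed to 144 to 202 TPM in control and 187 to 379 TPM in *Prdm16*SMKO libraries. The part of these cell types in the troponin values was not tested.

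*Tnnt2*, cardiac troponin T, is the gene that set this family apart, and the stretch before its first start is shown so that a reader can see the sequence from which it is read. *Tnnt2* (ENSMUSG00000026414) lies on the plus strand of chromosome 1 of GRCm38, from 135836354 to 135852260, and GENCODE M21 gives it 15 transcripts, 12 of them protein-coding, with 10 distinct starts. The sequence is from RefSeq (GRCm38.p6), chr1:135836084-135836314, plus strand, 231 bases that end just before the RefSeq start of the gene and overlap no annotated exon. Capitals mark the MCAT core, the motif bound by TEAD factors and known from cardiac troponin T promoters.

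Tnnt2: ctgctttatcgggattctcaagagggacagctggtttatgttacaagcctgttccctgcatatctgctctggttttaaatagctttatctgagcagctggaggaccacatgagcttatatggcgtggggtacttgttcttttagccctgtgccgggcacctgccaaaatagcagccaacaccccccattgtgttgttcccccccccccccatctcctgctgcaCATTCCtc

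The motif search covered both strands and let motifs overlap. The stretch held 1 MCAT core (CATTCC) and 4 E-boxes (CANNTG), and no exact match to a CArG box or a MEF2 site. Sites that differ from a motif by a base were not looked for, so such sites may be present. The first base of the MCAT core lies 8 bases before the RefSeq start of the gene. It lies 27 bases before the start of the RefSeq entry whose window was searched, so the distance depends on the start taken. In windows of 250 bases before the starts of all 32851 RefSeq entries searched, CATTCC was present in 12.6%, CANNTG in 66.2%, the CArG box in 1.47% and the MEF2 site in 2.92%. For the family, 8 windows of 6 genes could be read, and CATTCC was present in the first of the *Tnnt2* windows and in that of *Tnnc1*. These were also the only windows free of annotated exons. The windows of *Tnni1*, *Tnnc2*, *Tnnt1* and *Tnni3* and the second of *Tnnt2* overlapped exons of their own gene, so they are not upstream sequence alone. *Tnnt3* and *Tnni2* were not among the windows. These are matches of letters, and binding was not measured. TPM values are per gene, so they do not say which of the 10 starts was used.

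*Tnnt2* was at 5.76, 11.85 and 6.08 TPM in the control libraries and at 345.59, 320.16 and 303.84 TPM in the *Prdm16*SMKO libraries. Every *Prdm16*SMKO library stood far above every control library, and the lowest of them was 25.6-fold above the highest control. The group means were 7.90 ± 3.43 and 323 ± 21.0 TPM (SD, n = 3 each), a fold of 40.9. On the scale of log2(TPM + 0.5), used for all fold changes here, the difference was 5.34 (SE 0.25), and with any 1 library left out it ran from 5.16 to 5.65. Ranked by TPM within each library among the 55426 genes, *Tnnt2* moved from places 9088, 6761 and 8290 in control to places 231, 235 and 224 in *Prdm16*SMKO libraries. In *Prdm16*SMKO libraries it thus lay in the top 0.404 to 0.424% of the table, against the top 12.2 to 16.4% in control. Beside the smooth muscle myosin *Myh11*, *Tnnt2* TPM was 0.291, 0.366 and 0.359% of *Myh11* TPM in control and 13.8, 17.8 and 20.4% in *Prdm16*SMKO libraries.

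**Figure D1:**
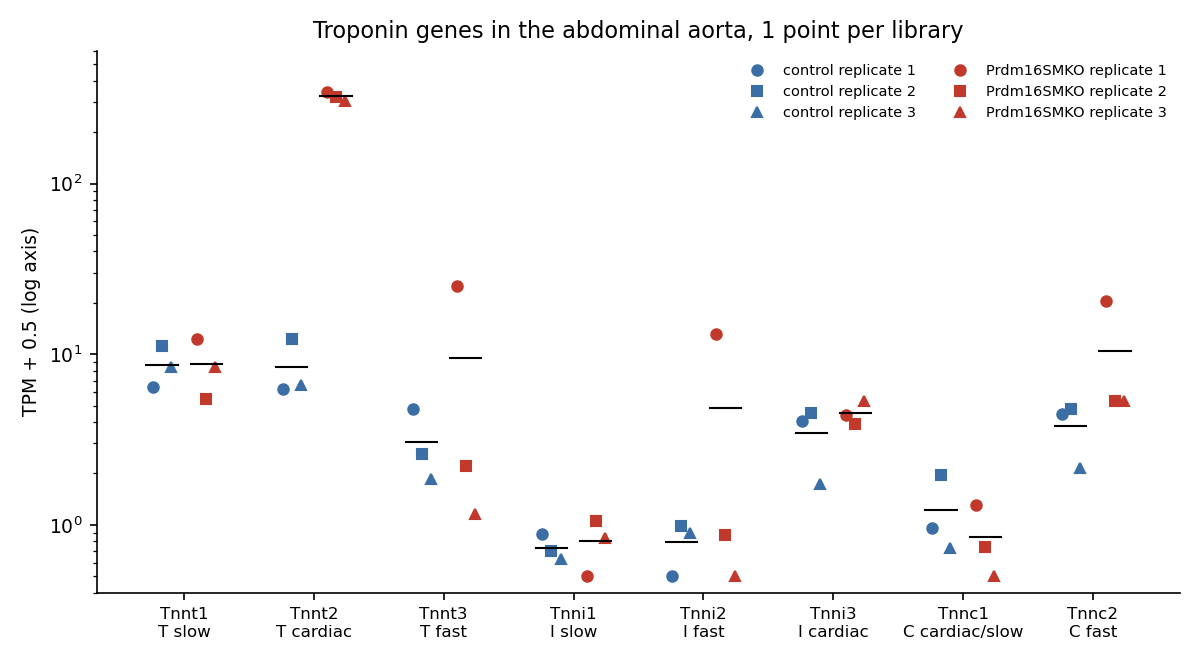
TPM + 0.5 on a log axis for the 8 troponin genes, 1 point per library (blue, control; red, *Prdm16*SMKO; the marker shape gives the replicate number) and a black line at each group's mean. *Tnnt2* sits between 303.84 and 345.59 TPM in the *Prdm16*SMKO libraries, while *Tnnt3*, *Tnni2* and *Tnnc2* have 1 high point each, *Prdm16*SMKO replicate 1.

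Of the 8 genes, 7 reached the minimum mean of 0.5 TPM and were tested, and 1 of them, *Tnnt2*, was called, meaning a limma adjusted p under 0.05 over all 15775 genes tested. The call rate over all these genes was 0.355%, with 0.184% called higher and 0.171% called lower in *Prdm16*SMKO. The values of *Tnnt2* chose the family, so nothing is read from this count. The study, by its own analysis of this RNA-seq, reports many more genes changed at an adjusted p under 0.05 than were called here. The lack of a call, here and throughout, thus holds for the limma fit used here and does not show that a gene was unchanged. *Tnni1*, the slow troponin I gene, did not reach the minimum. The log2 fold change was above 0 for 5 of the 7 tested and below 0 for 2, with a median of 0.50, beside 0.02 over all genes tested, where 8552 genes were above 0 and 7223 below. The 5 include *Tnnt2*, which chose the family, and *Tnnt3*, *Tnni2* and *Tnnc2*, whose values depended on *Prdm16*SMKO replicate 1, so nothing is read from this median either.

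The other troponin T genes, both of skeletal muscle, were not called. *Tnnt1*, slow skeletal troponin T (ENSMUSG00000064179; chromosome 7, 4504570 to 4516382, minus strand), was at 5.93, 10.66 and 7.87 TPM in control and 11.83, 4.99 and 7.91 TPM in *Prdm16*SMKO libraries. The groups overlapped over most of their range, and the means of 8.15 ± 2.38 and 8.24 ± 3.43 TPM (SD, n = 3 each) differed by less than the spread within either group, with a log2 fold change of −0.03 (SE 0.32; limma adjusted p = 0.994). Its sign turned with single libraries, from −0.31 to 0.27 when 1 library was left out. *Tnnt3*, fast skeletal troponin T (ENSMUSG00000061723; chromosome 7, 142498836 to 142516009, plus strand), was at 4.25, 2.11 and 1.36 TPM in control and 24.65, 1.71 and 0.65 TPM in *Prdm16*SMKO libraries. *Prdm16*SMKO replicate 1 was 5.80-fold above the next library, and the other *Prdm16*SMKO libraries lay within or under the control range. The log2 fold change of *Tnnt3* was 0.49 (SE 0.98; limma adjusted p = 0.964), and −0.84 without that library.

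Among the troponin I genes, *Tnni3* is the cardiac partner of *Tnnt2*. *Tnni3* (ENSMUSG00000035458; chromosome 7, 4518305 to 4524229, minus strand) was at 3.54, 4.05 and 1.23 TPM in control and 3.89, 3.38 and 4.79 TPM in *Prdm16*SMKO libraries. The groups overlapped, with means of 2.94 ± 1.50 and 4.02 ± 0.714 TPM (SD, n = 3 each) and a log2 fold change of 0.50 (SE 0.36; limma adjusted p = 0.830). The ratio of *Tnnt2* to *Tnni3* TPM was 1.63, 2.93 and 4.94 in control and 88.8, 94.7 and 63.4 in *Prdm16*SMKO libraries. *Tnni1*, slow troponin I (ENSMUSG00000026418; chromosome 1, 135779434 to 135810989, plus strand), is the nearest troponin gene to *Tnnt2*, 25.4 kb away. It was at 0.38, 0.20 and 0.13 TPM in control, and at 0, 0.56 and 0.34 TPM in *Prdm16*SMKO libraries, under 1 TPM everywhere. *Tnni2*, fast troponin I (ENSMUSG00000031097; chromosome 7, 142441808 to 142444410, plus strand), was at 0, 0.49 and 0.40 TPM in control and 12.66, 0.37 and 0 TPM in *Prdm16*SMKO libraries. Again *Prdm16*SMKO replicate 1 alone was high, 25.8-fold above the next library, and the log2 fold change was 1.23 (SE 1.06; limma adjusted p = 0.870). Without that library the mean of *Tnni2* fell under the minimum, and no fold change was fitted.

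The troponin C genes bind the calcium. *Tnnc1*, used by heart and slow fibres (ENSMUSG00000091898; chromosome 14, 31208312 to 31211729, plus strand), was at 0.46, 1.47 and 0.23 TPM in control and 0.81, 0.24 and 0 TPM in *Prdm16*SMKO libraries. Both groups lay near or under 1 TPM and overlapped, with a log2 fold change of −0.50 (SE 0.52; limma adjusted p = 0.907). *Tnnc2*, fast troponin C (ENSMUSG00000017300; chromosome 2, 164777161 to 164779967, minus strand), was at 3.97, 4.30 and 1.65 TPM in control and 20.07, 4.83 and 4.79 TPM in *Prdm16*SMKO libraries. The groups of *Tnnc2* did not overlap, but the lowest *Prdm16*SMKO library was only 1.11-fold above the highest control. Its log2 fold change of 1.22 (SE 0.54) did not pass the threshold (limma adjusted p = 0.573) and was 0.57 without *Prdm16*SMKO replicate 1. Of the 7 tested genes, 2, *Tnnt2* and *Tnnc2*, were higher without overlap, and none was lower without overlap. Of all genes tested, 12.8% had groups without overlap, 7.02% higher and 5.76% lower, and *Tnnt2* chose the family, so nothing is read from this count.

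**Figure D2:**
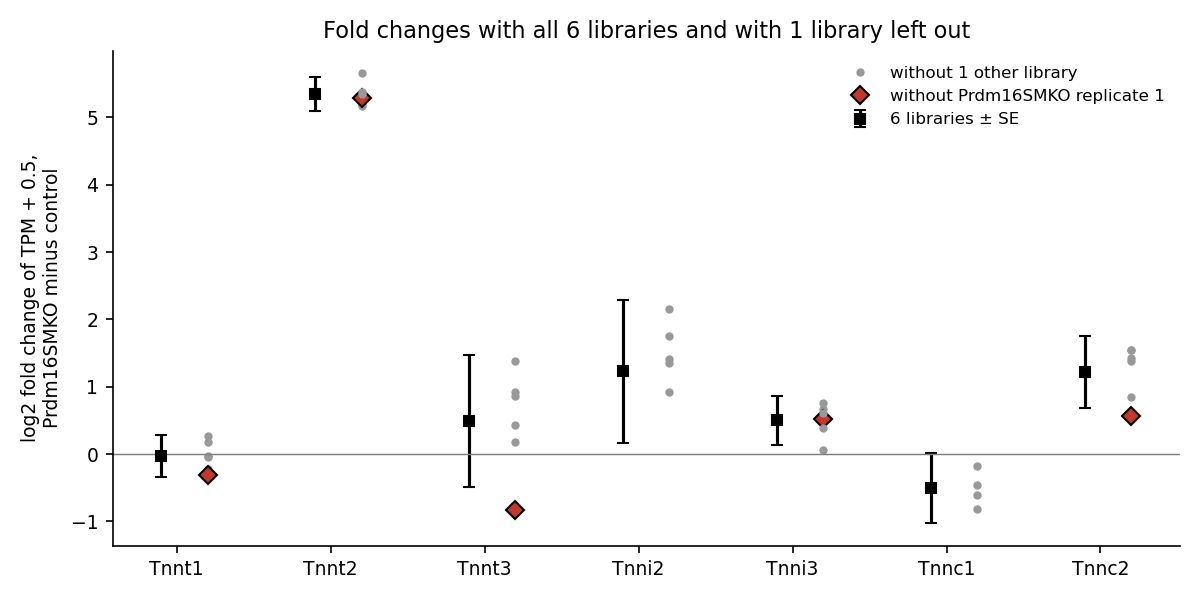
Log2 fold change of TPM + 0.5 between *Prdm16*SMKO and control for the 7 tested troponin genes: black squares, all 6 libraries with the SE; grey points, 1 other library left out; red diamonds, *Prdm16*SMKO replicate 1 left out (absent for *Tnni2* and *Tnnc1*, which then fell under the minimum). *Tnnt2* stays between 5.16 and 5.65, while *Tnnt3* turns from 0.49 to −0.84 without *Prdm16*SMKO replicate 1.

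Summed by subunit, troponin T TPM was 15.94, 24.62 and 15.31 in control and 382.07, 326.86 and 312.4 in *Prdm16*SMKO libraries. Troponin I TPM was 3.92, 4.74 and 1.76 in control and 16.55, 4.31 and 5.13 in *Prdm16*SMKO libraries, and troponin C TPM was 4.43, 5.77 and 1.88 against 20.88, 5.07 and 4.79. Troponin T transcripts thus outnumbered troponin I transcripts 4.07, 5.19 and 8.70 times in control and 23.1, 75.8 and 60.9 times in *Prdm16*SMKO libraries. *Tnnt2* held 36.1, 48.1 and 39.7% of troponin T TPM in control and 90.5, 98.0 and 97.3% in *Prdm16*SMKO libraries, and 23.7, 33.7 and 32.1% against 82.4, 95.2 and 94.3% of the TPM of all 8 genes. The 7 genes without *Tnnt2* summed to 18.53, 23.28 and 12.87 TPM in control and to 73.91, 16.08 and 18.48 TPM in *Prdm16*SMKO libraries. Apart from *Prdm16*SMKO replicate 1, these sums of the groups lay in the same range.

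**Figure D3:**
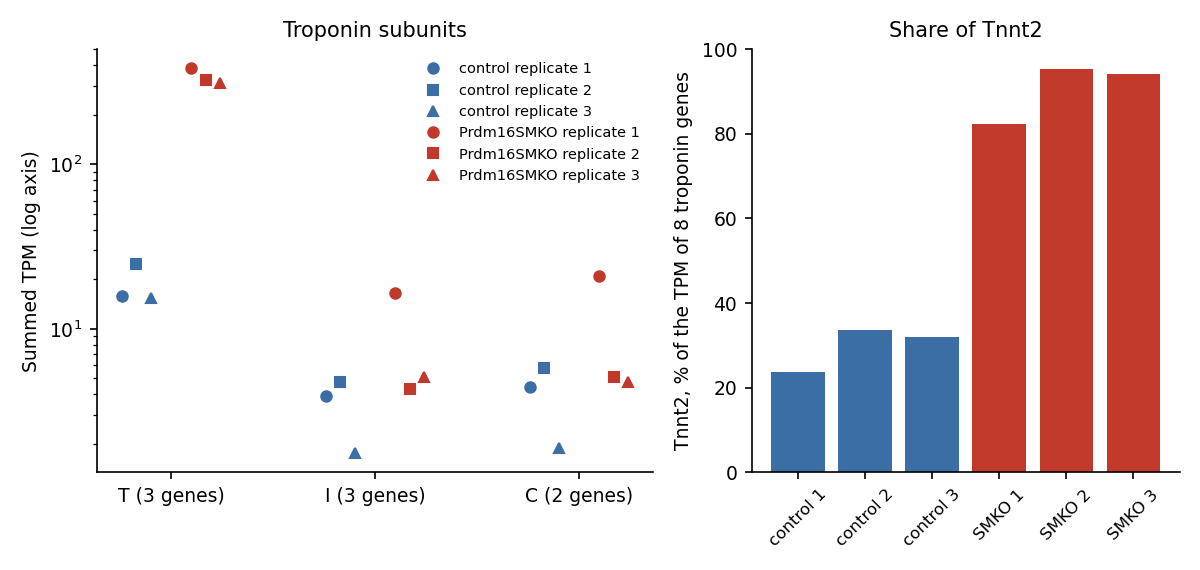
Left, summed TPM of the troponin T, I and C genes on a log axis, 1 point per library (blue, control; red, *Prdm16*SMKO); right, *Tnnt2* as a percent of the TPM of all 8 troponin genes in each library. The troponin T sums separate (15.31 to 24.62 against 312.4 to 382.07 TPM), and the share of *Tnnt2* runs from 23.7 to 33.7% in control and from 82.4 to 95.2% in *Prdm16*SMKO libraries.

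Ordered by mean TPM in control aorta, the genes were *Tnnt1*, *Tnnt2*, *Tnnc2*, *Tnni3*, *Tnnt3*, *Tnnc1*, *Tnni2* and *Tnni1*. Only *Tnnt2* and *Tnnc2* were neighbours in that order whose 3 values did not overlap, and *Tnnt1* and *Tnnt2* overlapped at the top. Within libraries, *Tnnc2* was above *Tnni3* and *Tnnt3* above *Tnnc1* in 3 of 3 control libraries, although the ranges of these pairs overlapped. In *Prdm16*SMKO aorta the order was *Tnnt2*, *Tnnc2*, *Tnnt3*, *Tnnt1*, *Tnni2*, *Tnni3*, *Tnnc1* and *Tnni1*. There the steps without overlap were from *Tnnt2* to *Tnnc2* and from *Tnni3* to *Tnnc1*, and the places of *Tnnc2*, *Tnnt3* and *Tnni2* rest on *Prdm16*SMKO replicate 1.

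That library also stood apart for genes of skeletal muscle fibres, which were looked at because *Tnnt3*, *Tnni2* and *Tnnc2* are fast-fibre genes. The 3 fast troponins summed to 8.22, 6.90 and 3.41 TPM in control and to 57.38, 6.91 and 5.44 TPM in *Prdm16*SMKO libraries. The 20 skeletal muscle markers summed to 57.21, 71.93 and 34.54 TPM in control and to 135.95, 44.23 and 49.28 TPM in *Prdm16*SMKO libraries. Of these markers, 15 were highest in *Prdm16*SMKO replicate 1, and *Myod1* and *Myog*, factors of muscle precursors, were at 0 in all libraries. The single markers that follow were chosen after their values were seen. In *Prdm16*SMKO replicate 1 the fast myosin *Myh4* was at 8.02 TPM against at most 0.10 TPM in the others, the calcium pump *Atp2a1* at 4.74 against at most 0.08 TPM, and parvalbumin, *Pvalb*, at 5.36 against at most 0.26 TPM. Skeletal actin, *Acta1*, was at 12.03 TPM there and at most 1.14 TPM elsewhere, and creatine kinase, *Ckm*, at 16.56 against at most 5.55 TPM. Others of the 15 led by little: *Mylpf*, *Myoz1*, *Eno3* and *Neb* were 1.20-, 1.24-, 1.31- and 1.58-fold above the next library. Not highest there were *Casq1*, at 35.39 against up to 44.62 TPM, *Mybpc2*, at 1.82 against up to 2.48 TPM, and *Myh2*, at 0.10 against up to 0.12 TPM. *Casq1*, at 28.5 ± 14.4 TPM in control and 28.4 ± 6.02 TPM in *Prdm16*SMKO libraries (SD, n = 3 each), was a large part of the control marker sums. The part of skeletal muscle RNA in the fast troponin values was not tested. *Tnnt2* was at 345.59 TPM in that library and at 320.16 and 303.84 TPM in the other *Prdm16*SMKO libraries, whose marker sums lay within the control range.

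**Figure D4:**
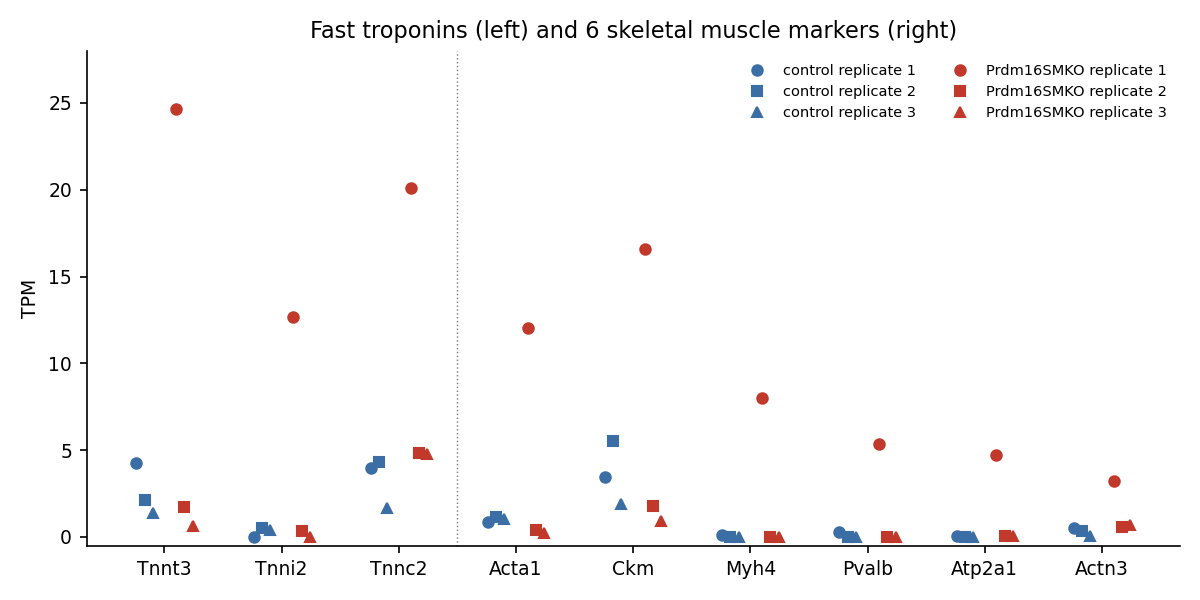
TPM of the fast troponins *Tnnt3*, *Tnni2* and *Tnnc2* (left of the dotted line) and of 6 skeletal muscle fibre markers (right), 1 point per library (blue, control; red, *Prdm16*SMKO; the marker shape gives the replicate number). The red circle, *Prdm16*SMKO replicate 1, is the highest point for all 9 genes, at 24.65 TPM for *Tnnt3* and 12.03 TPM for *Acta1*. The listed markers *Casq1*, *Mybpc2* and *Myh2*, not shown, were not highest in that library. *Mylpf*, *Myoz1*, *Eno3* and *Neb*, also not shown, were highest there by only 1.20- to 1.58-fold.

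Heart muscle markers were set beside *Tnnt2* in the same way. The 15 cardiomyocyte markers summed to between 26.6 and 40.21 TPM in control and between 34.11 and 35.35 TPM in *Prdm16*SMKO libraries, ranges that overlap. Most of each sum came from the calcium release channel *Ryr2*, at 15.8 ± 2.17 and 13.7 ± 2.29 TPM, and the light chain *Myl4*, at 10.1 ± 2.99 and 9.28 ± 1.95 TPM (SD, n = 3 each), named after their values were seen like the other single markers here. Of the 15, the atrial light chain *Myl7*, the ventricular light chain *Myl3*, the natriuretic peptide *Nppb* and the factor *Nkx2-5* were at 0 in all 6 libraries, and 9 stayed under 1 TPM everywhere. None of the 5 tested was called by limma, beside 0.355% of all genes tested. The cardiac actin *Actc1*, at 0.83, 4.95 and 5.10 TPM in control and 7.11, 6.93 and 11.97 TPM in *Prdm16*SMKO libraries, and the myosin-binding protein *Mybpc3*, at 0, 0.03 and 0 against 0.38, 0.27 and 0.28 TPM, were higher without overlap. The cardiac myosin *Myh6* was lower without overlap, at 0.92, 2.09 and 1 against 0.21, 0.71 and 0.46 TPM. *Mybpc3* was under the minimum mean and was not tested. Of the 5 tested, 1 was higher and 1 lower without overlap, beside 7.02% and 5.76% of all genes tested, and nothing is read from so few. The part of heart muscle RNA in the *Tnnt2* values was not tested. The cardiac troponin partners *Tnni3* and *Tnnc1* were at most 4.79 and 1.47 TPM in any library. *Tnni3k*, a cardiac kinase that is no troponin despite its symbol and was looked up after the values were seen, was at 0.89, 1.20 and 0.43 TPM in control and 0.13, 0.52 and 0.09 TPM in *Prdm16*SMKO libraries.

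The rest of the thin filament was described by a list of 21 genes of actins, tropomyosins, calponins and their caps. Of the 19 tested, none was called by limma, beside 0.355% of all genes tested. At an unadjusted limma p under 0.05, 3 were higher and 2 lower, beside 8.74% of all genes tested in either direction. The median log2 fold change was −0.03. The tropomyosins, to which troponin T binds, were not called. *Tpm1* was at 1540 ± 293 TPM in control and 1393 ± 228 TPM in *Prdm16*SMKO libraries, and *Tpm2* at 2487 ± 614 and 1911 ± 434 TPM (SD, n = 3 each), log2 fold changes of −0.14 (SE 0.20) and −0.38 (SE 0.24). *Tpm3* and *Tpm4* had log2 fold changes of 0.13 and 0.05, and *Cald1*, the caldesmon that sits on thin filaments of smooth muscle, −0.12. Smooth muscle actin, *Acta2*, was at 9269 ± 3275 TPM in control and 6546 ± 1440 TPM in *Prdm16*SMKO libraries (SD, n = 3 each; log2 fold change −0.47, limma adjusted p = 0.765). By qPCR in abdominal aorta, the study reports a significant decrease of *Acta2* RNA in *Prdm16*SMKO mice. Of the 19, 2 were higher and 2 lower in *Prdm16*SMKO without overlap, beside 7.02% and 5.76% of all genes tested. The lower ones, named after their values were seen, were the calponins *Cnn1*, at 1601 ± 351 and 1141 ± 208 TPM, and *Cnn2*, at 177 ± 26.9 and 128 ± 22.8 TPM (SD, n = 3 each; limma adjusted p = 0.571 and 0.502). The higher ones were the cardiac actin *Actc1*, at 3.63 ± 2.42 and 8.67 ± 2.86 TPM, and the enteric smooth muscle *Actg2*, at 107 ± 27.8 and 195 ± 42.6 TPM (SD, n = 3 each). Neither passed the threshold, with log2 fold changes of 1.37 (SE 0.52) and 0.87 (SE 0.23) and limma adjusted p-values of 0.485 and 0.235. *Acta1*, skeletal actin, had a log2 fold change of 0.42, and −0.90 without *Prdm16*SMKO replicate 1.

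The switch that smooth muscle uses in place of troponin had 10 members, all of them tested. None was called by limma and none reached an unadjusted p under 0.05, beside 0.355% and 8.74% of all genes tested. With so few genes, nothing is read from these counts. The log2 fold change was above 0 for 4 and below 0 for 6, with a median of −0.05. The light chains *Myl6* and *Myl9* had log2 fold changes of −0.06 (SE 0.20) and −0.15 (SE 0.23), the calmodulin gene *Calm2* 0.04 (SE 0.17) and the kinase *Mylk* 0.10 (SE 0.22).

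Among 36 genes of the striated thick filament and Z-disc, 19 were tested, 1 was called higher and none lower, with 2 higher and 3 lower at an unadjusted p under 0.05 and a median log2 fold change of −0.08. Over all genes tested, 0.355% were called and 8.74% were under that unadjusted p. Without overlap, 3 of the 19 were higher and 4 lower, beside 7.02% and 5.76% of all genes tested. The gene called was *Ankrd1*, a stress-responsive repeat protein of the cardiac sarcomere and nucleus. *Ankrd1* was at 6.40, 6.67 and 4.74 TPM in control and 36.87, 39.34 and 27.93 TPM in *Prdm16*SMKO libraries. The groups lay well apart, with a log2 fold change of 2.45 (SE 0.20; limma adjusted p = 0.00267). *Ankrd1* is also among the upregulated genes that the study lists. The genes of this list with the highest levels were *Tcap*, the cap of titin, at 174 ± 47.7 and 257 ± 47.4 TPM (log2 fold change 0.58, limma adjusted p = 0.523), and *Myom1*, a protein of the M-band, at 290 ± 69.6 and 227 ± 63.7 TPM (SD, n = 3 each; −0.36, adjusted p = 0.821). The Z-disc gene *Ldb3* and the actin-binding *Xirp1* had log2 fold changes of −0.08 and −0.46 and were not called.

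Transcription factors and cofactors known to act on cardiac and skeletal muscle genes made up a list of 27. Of the 17 tested, none was called by limma and none reached an unadjusted p under 0.05, beside 0.355% and 8.74% of all genes tested. The log2 fold change was above 0 for 8 and below 0 for 9, with a median of −0.04. *Mef2a*, *Mef2c*, *Srf* and *Myocd* had the highest levels, with log2 fold changes of −0.32 (SE 0.16), −0.12 (SE 0.16), −0.36 (SE 0.19) and 0.13 (SE 0.19). Without overlap, 1 of the 17 was higher and 2 were lower, beside 7.02% and 5.76% of all genes tested. The lower ones were *Srf* and *Wwtr1*, the latter at 47.7 ± 5.48 and 39.6 ± 2.75 TPM (SD, n = 3 each; limma adjusted p = 0.732), named after its values were seen. The TEAD genes, whose products bind the MCAT core, were looked up after their values were seen, and none was called. *Tead1* was at 22.2 ± 4.29 and 18.6 ± 2.45 TPM, *Tead2* at 7.65 ± 2.63 and 6.22 ± 2.24 TPM and *Tead3* at 65.8 ± 13.0 and 53.4 ± 9.59 TPM in control and *Prdm16*SMKO libraries (SD, n = 3 each), with overlapping groups and log2 fold changes of −0.24, −0.28 and −0.30. *Tead4* was at 0.667 ± 0.0681 and 1.06 ± 0.184 TPM (SD, n = 3 each), higher without overlap, with a log2 fold change of 0.41 (limma adjusted p = 0.823).

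**Figure D5:**
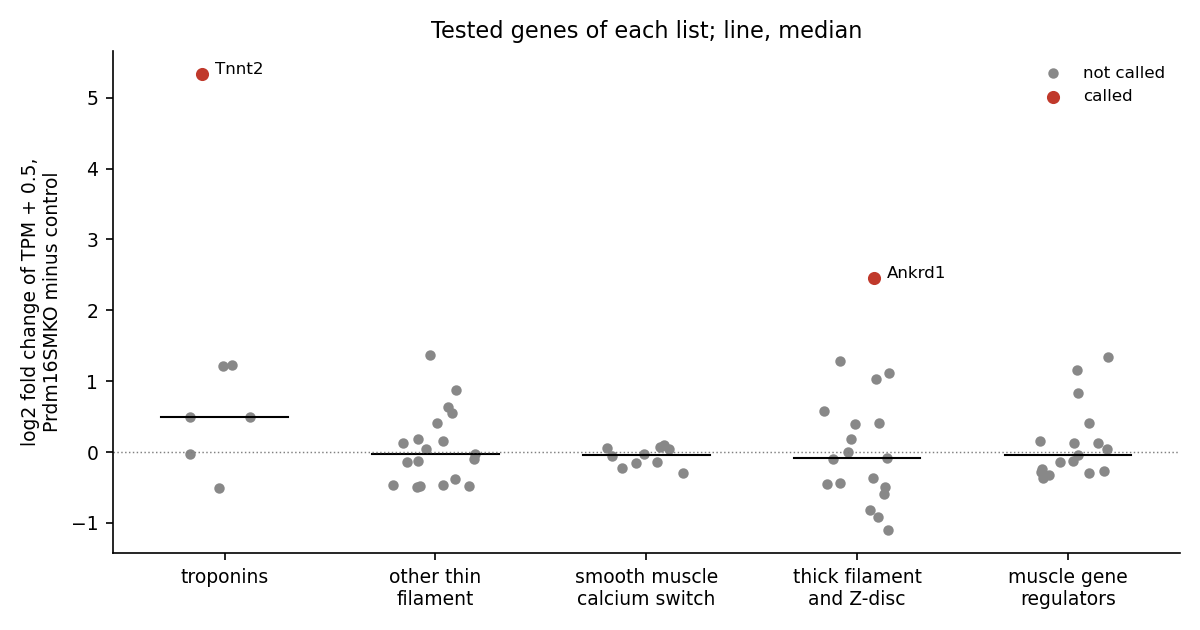
Log2 fold change of TPM + 0.5 between *Prdm16*SMKO and control for the tested genes of the troponin family and of 4 lists, 1 point per gene, with a black line at each list's median and called genes in red (side-to-side spread only separates the points). The called genes are *Tnnt2* at 5.34 and *Ankrd1* at 2.45, and the list medians run from −0.08 to 0.50.

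The genome around the troponin genes was looked at next, since troponin I and T genes lie in pairs: *Tnni1* beside *Tnnt2*, *Tnni3* beside *Tnnt1* at a gap of 1.92 kb, and *Tnni2* beside *Tnnt3* at a gap of 54.4 kb. Within 200 kb of *Tnnt2* the table held 10 genes, 3 of which were tested and none called. Both of the nearer tested genes, named after their values were seen, had groups that did not overlap, in opposite directions, beside 12.8% of all genes tested in either direction. *Csrp1*, a LIM protein of smooth muscle 84.1 kb from *Tnnt2*, was at 1277 ± 254 TPM in control and 837 ± 162 TPM in *Prdm16*SMKO libraries (SD, n = 3 each; log2 fold change −0.61, limma adjusted p = 0.424). *Phlda3*, a p53 target 67.2 kb away, was at 47.9 ± 6.23 and 69.6 ± 9.63 TPM (SD, n = 3 each; log2 fold change 0.53, limma adjusted p = 0.357). The study, by its own analysis of the RNA-seq, lists *Phlda3* among its upregulated genes, so its lack of a call holds for the limma fit used here. *Tmem9*, 156 kb away on the other side, had a log2 fold change of 0.16. Across all 8 troponin genes, 49 other genes within 200 kb were tested, and the number called by limma was 0, beside a call rate of 0.355% over all genes tested.

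Whether the reads were counted by strand is not given in the sources used here, and 4 of the troponin genes share their span with another gene. *Prr33* overlaps *Tnnt3*, *Ube2c* overlaps *Tnnc2* and *Nisch* overlaps *Tnnc1*, each on the opposite strand, and *Dnaaf3* overlaps *Tnni3* on the same strand. *Nisch* was the only one of these at a high level, 103 ± 23.8 TPM in control and 106 ± 8.72 TPM in *Prdm16*SMKO libraries (SD, n = 3 each), far above *Tnnc1*. *Tnnt2* shares its span with no other gene of the table.

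The genes whose pattern over the 6 libraries was most like that of *Tnnt2* were found by Pearson correlation of log2(TPM + 0.5) among 9668 other genes whose mean reached 5 TPM. With 3 libraries high and 3 low, such a correlation mostly ranks genes by how cleanly the same groups separate, so it is a description. They were *Angpt2*, a ligand of the endothelial receptor Tie2 (r = 0.997), *Eno1b*, a near-identical copy of the glycolytic enzyme gene *Eno1* (r = 0.995), *Calcrl*, the receptor subunit for adrenomedullin (r = 0.994), *Hccs*, which attaches heme to cytochrome c (r = 0.993), and *Ankrd1* (r = 0.988). *Eno1b* was at 0.44, 1.50 and 0.84 TPM in control and 96.09, 58.34 and 106.86 TPM in *Prdm16*SMKO libraries, a log2 fold change of 5.96 (SE 0.32), although reads of *Eno1* and *Eno1b* may have been split between them. The log2 fold changes of the others were smaller, 0.73 for *Angpt2*, which was not called (limma adjusted p = 0.0920), 1.04 for *Calcrl* and 1.13 for *Hccs*, both of which lost their call under 9 of 15 alternatives. No other troponin gene was among them, but *Tnni1*, *Tnni2*, *Tnni3* and *Tnnc1* could not be. Their means over the 6 libraries, 0.268, 2.32, 3.48 and 0.535 TPM, were under the minimum of 5 TPM. *Tnnt3* passed it, at 5.79 TPM, only through *Prdm16*SMKO replicate 1. Nothing is read from their absence.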

How the data were processed

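RNA was extracted from abdominal aorta with a column kit, and poly A libraries were read as pairs of 151 bp. Per the labels, the submitters' processing notes name cutadapt 2.3, FastQC 0.11.8, STAR 2.7.8a, RSEM 1.3.3 and MultiQC 1.7 with GRCm38, and the authors deposited TPM values with 2 decimals for 55426 genes. The annotation and strand setting are not given in the sources used here. IDs were matched to GENCODE M21 for positions (55154 found), and promoter windows came from RefSeq on GRCm38.p6.

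Log2(TPM + 0.5) was taken for the 15775 genes whose mean reached 0.5 TPM and compared between groups with limma 3.58.1 in R 4.3.3 (variance trend, two-sided p, Benjamini-Hochberg over all genes, called under 0.05), and the fit was tested on simulated data. The study gives 3 mice per group, and p-values measure the spread between their libraries. With 3 against 3 an exact permutation test cannot go below 0.1, so none was used. The family and the lists were chosen with earlier results of these data known, and the marker lists hold genes shared with the muscle lists. Named were the 8 troponins, *Prdm16*, called genes of the lists and within 200 kb, the 4 most abundant genes of each list, actins and tropomyosins of the lists, and the 5 genes most like *Tnnt2*. Alternatives were pseudocounts of 0.1 and 1, no minimum or 2 TPM, median-of-ratios scaling, quantile normalization, no variance trend, array weights, a replicate block and each library left out. Tables and figures used Python 3.11.15, pandas 2.3.3, numpy 2.4.6 and matplotlib 3.10.9.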

Additional observations from a re-analysis of the deposited data

How the results depend on the processing

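As a description, the log2 fold change of *Tnnt2* ran from 5.16 to 5.65 over 15 alternatives. *Ankrd1* was called under each of them, with log2 fold changes from 2.31 to 2.60 and limma adjusted p-values from 3.0e-04 to 0.0394. The number of all genes called, 56 with 29 higher, was 10 with no expression minimum (26559 genes tested), 153 with median-of-ratios scaling (39.9% of them higher, against 51.8%), 129 with quantile normalization (35.7% higher), 33 without a variance trend and 494 with array weights, was 77 at a minimum of 2 TPM (40.3% higher), and ran from 5 to 61 with 1 library left out (17, 5 and 17 on leaving out control replicate 1, 2 or 3, 28 on leaving out *Prdm16*SMKO replicate 2). The cause was not tested. Array weights called 2 thin filament genes (*Actc1* and *Actg2*), and the thick filament and Z-disc list held 2 called genes with array weights, median-of-ratios scaling and quantile normalization, the second being *Synpo2l*.

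Deviations from the group means had correlations of −0.131, −0.11 and 0.019 between same-numbered libraries. Between differently numbered libraries they ran from −0.167 to 0.242. The labels name no shared animal or batch, and such correlations cannot exclude one, so the replicate block was kept as an alternative. With a replicate block 4 genes were called, 2 higher and 2 lower, all 4 among the 56, *Ankrd1* included.

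Of 506 values for 34 named genes under the alternatives, 459 kept direction and call, 19 lost the call, 5 gained it and 23 changed sign. The 19 were *Calcrl* and *Hccs*, each under 9 of 15 alternatives, and *Eno1b* with the replicate block (limma adjusted p = 0.0608). None of those that changed sign was called. With array weights the log2 fold changes were 0.277 for *Tnnt1*, −0.0647 for *Tnnt3*, 0.0459 for *Cald1* and 0.0776 for *Mef2c*. With 1 library left out the log2 fold changes ran from −0.31 to 0.27 for *Tnnt1*, −0.84 to 1.39 for *Tnnt3*, −0.90 to 1.17 for *Acta1*, −0.222 to 0.0706 for *Cald1*, −0.258 to 0.00813 for *Tpm1*, −0.0390 to 0.11 for *Tpm4*, −0.156 to 0.0199 for *Myl6*, −0.331 to 0.00694 for *Myl9*, −0.0350 to 0.154 for *Calm2*, −0.0294 to 0.296 for *Mylk*, −0.230 to 0.0823 for *Ldb3*, −0.0339 to 0.241 for *Myocd* and −0.238 to 0.00429 for *Mef2c*. TPM carries no depth, so genes under 1 TPM, *Tnni1*, *Tnni2* in 5 libraries and *Tnnc1* in most, have no error beyond the spread of 3 samples.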
